A study of Mus musculus with 16 samples.

Results

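Neurog1, Neurod1, Insm1, Hes6, Ezh2 and Kit are regulators of globose basal cells, the dividing progenitors of the olfactory epithelium, and of the newborn neurons these cells produce. The 6 genes were taken by name from the array annotation. Of them 5 had a probe set that the annotation names, 1 each, among 19505 genes measured. Neurod1 had none named and is not analysed here. Neurog1 and Hes6 encode basic helix-loop-helix factors and Insm1 a zinc finger factor. Kit is a receptor tyrosine kinase and Ezh2 a histone methyltransferase, so the set is described as regulators and not as transcription factors only.

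The libraries came from C57BL/6 mice carrying an S100a5-tauGFP reporter, in which the promoter of the calcium-binding protein gene S100a5 drives a fluorescent protein in active olfactory sensory neurons. The mice, 24 in all and of both sexes, were 7 to 12 weeks old. Each mouse was housed by itself for 40 hours in a chamber with clean air at 3.1 L/min, and from hour 26 it received a 10 second pulse every 20 minutes. The pulse held either bourgeonal, an aldehyde that smells of lily of the valley, or filtered air, the vehicle. Cells of the olfactory mucosa were separated by FACS in pools of 3 mice, with a library of each gate from every pool. The 16 libraries form 4 groups of 4, which are odor and titled GFP-, vehicle and titled GFP-, odor and titled GFP+, and vehicle and titled GFP+. All 4 groups carried the reporter. Because mice were pooled, differences between single mice cannot be seen.

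In all 16 libraries the gate given in the title is the reverse of the gate in the cell type field, and groups here follow the titles. S100a5 averaged 16.17 ± 0.31 in libraries titled GFP- and 15.14 ± 0.39 in libraries titled GFP+ (log2, SD, n = 8 each), and was higher on the titled GFP- side in 8 of 8 pools. This goes against the titles, so every direction is given for "the library titled" one or the other. Omp, the marker of mature olfactory neurons, averaged 18.86 ± 0.08 in titled GFP- and 18.82 ± 0.09 in titled GFP+ libraries. Both gates held RNA of mature neurons. The array gives no read depth. A background guide was taken as the 95th percentile of 321 vomeronasal receptor genes in each library, since olfactory epithelium hardly uses them. The guide averaged 4.81 in odor and 4.89 in vehicle libraries titled GFP-, against 4.40 in odor and 4.50 in vehicle libraries titled GFP+. A value below it is treated as near background.

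In the olfactory epithelium, globose basal cells express Neurog1 and then Neurod1 as they become committed neuronal precursors. Notch signalling holds cells back from this step through Hes repressors, while Hes6 opposes Hes1 and favours neuronal differentiation. Insm1 is switched on in late progenitors and newborn neurons, and Kit marks neuron-forming globose basal cells. Ezh2 is the catalytic subunit of Polycomb repressive complex 2, which silences genes by methylating histone H3, and it is abundant in dividing cells. Kit and Ezh2 are not limited to neuronal progenitors: blood progenitors and mast cells also use Kit, and many dividing cells use Ezh2.

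Promoters of the regulators are shown because basic helix-loop-helix factors such as Neurog1 bind E-boxes (CANNTG) and because the regulators were lower on the same side of the sort. Sequences are RefSeq's on GRCm38.p6, from 250 bases before to 50 bases after the annotated start, and 5 of the 6 genes matched an entry, Insm1 being the one without. Neurog1 lies at chr13:56252131-56252430 on the minus strand, the first of the 2 Hes6 starts at chr1:91413989-91414288 on the minus strand, the first of the 2 Kit starts at chr5:75574737-75575036 on the plus strand, and Ezh2 at chr6:47594981-47595280 on the minus strand. Capitals mark E-boxes in Neurog1, Hes6 and Kit, and in Ezh2 the motif TTTNNCGC, a form of the site bound by E2F cell cycle factors.
Neurog1: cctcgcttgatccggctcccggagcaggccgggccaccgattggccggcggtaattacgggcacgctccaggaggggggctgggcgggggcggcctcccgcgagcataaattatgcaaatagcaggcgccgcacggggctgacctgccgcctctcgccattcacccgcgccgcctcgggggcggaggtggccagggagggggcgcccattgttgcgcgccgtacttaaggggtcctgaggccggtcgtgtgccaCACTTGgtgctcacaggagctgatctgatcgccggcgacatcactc
Hes6: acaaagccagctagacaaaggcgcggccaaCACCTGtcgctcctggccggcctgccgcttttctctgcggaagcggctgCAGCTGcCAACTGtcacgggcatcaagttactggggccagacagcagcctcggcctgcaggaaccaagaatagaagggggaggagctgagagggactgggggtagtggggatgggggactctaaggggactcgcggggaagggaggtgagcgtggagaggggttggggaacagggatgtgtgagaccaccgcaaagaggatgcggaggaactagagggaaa
Kit: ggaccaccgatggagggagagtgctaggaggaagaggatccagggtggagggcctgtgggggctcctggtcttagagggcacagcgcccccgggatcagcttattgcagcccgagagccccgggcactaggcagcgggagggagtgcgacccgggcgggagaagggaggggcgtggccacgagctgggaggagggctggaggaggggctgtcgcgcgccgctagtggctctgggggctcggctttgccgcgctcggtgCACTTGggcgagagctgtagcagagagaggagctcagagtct
Ezh2: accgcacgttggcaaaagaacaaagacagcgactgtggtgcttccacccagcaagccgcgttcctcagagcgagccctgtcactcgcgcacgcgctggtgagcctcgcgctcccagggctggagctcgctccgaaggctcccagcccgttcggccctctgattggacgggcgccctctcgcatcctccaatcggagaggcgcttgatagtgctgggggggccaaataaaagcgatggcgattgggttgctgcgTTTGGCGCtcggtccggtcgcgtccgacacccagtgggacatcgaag

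An E-box occurred in 72.3% of 32851 promoter windows of the same length, so a single match, as in Neurog1 and Kit, is common. Both strands were searched. The window of the first Hes6 start held 3 E-boxes, of which 1 was CAGCTG, a form found in 16.3% of windows. That of the second start, which is not printed, held 1 E-box, also CAGCTG, 2 N-boxes (CACNAG, the site of Hes repressors, in 42.5% of windows) and 2 CCAAT boxes (CCAAT, in 37.4% of windows). The Ezh2 window held 0 E-boxes, 3 CCAAT boxes and 1 match to TTTNNCGC, which occurred in 5.17% of windows. Kit held 1 match to TTTNNCGC as well, and 3 N-boxes. The CAGCTG matches are a subset of the E-box matches. These are letter matches and do not show that a factor binds.

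All 5 measured regulators were lower in libraries titled GFP- than in libraries titled GFP+ when the 8 pools were fitted together (limma with the pool as a block, adjusted over 19505 genes). Across all genes 13.2% were called lower in that fit, and the median log2 ratio of all genes was 0.10, against -1.20 for the 5 regulators. Over all genes 27.6% were called, 2810 higher and 2568 lower. With each library centred on its median gene, which moved the median ratio to 0.46, the calls were 14336 higher and 1792 lower, and with quantile normalization 4200 higher and 2475 lower. All 5 regulators kept their sign under both, with -4.05 for Kit, -1.09 for Insm1, -0.84 for Neurog1, -0.66 for Hes6 and -0.16 for Ezh2 when centred. Kit differed by at least 9.97-fold and Insm1 by at least 1.86-fold. Neurog1 lay near background in most libraries, and the Ezh2 call was lost in several reanalyses. Expression in sorted bulk cells cannot tell fewer cells of a type from less RNA per cell. Markers of several other cell types were also lower in titled GFP- libraries, and their values stand beside the results below.

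**Figure D1:**
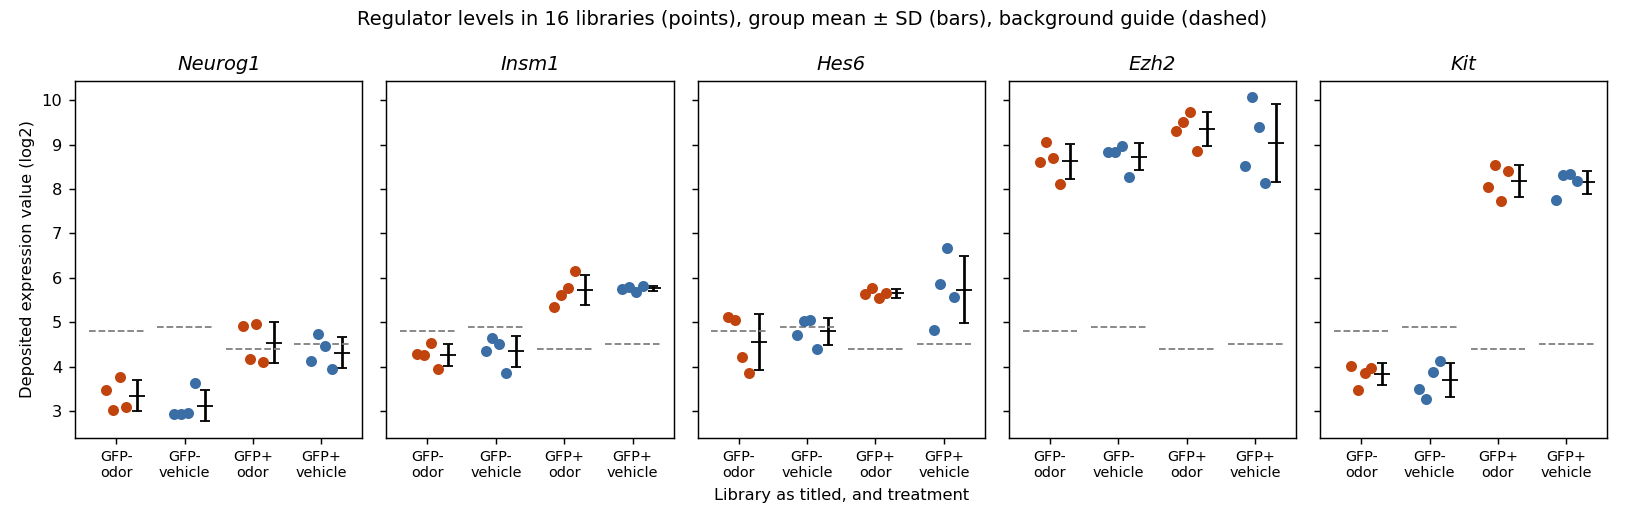
Deposited log2 values of the 5 measured regulators in each of the 16 libraries (points), with group mean ± SD (bars, n = 4) and the mean background guide of each group (dashed). Kit and Insm1 lay below the guide in all 8 libraries titled GFP- and above it in all 8 titled GFP+, Neurog1 lay around or below it throughout, and Ezh2 lay far above it in every group.

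Neurog1, which commits globose basal cells to a neuronal fate, had values of 3.48, 3.02, 3.77 and 3.09 in odor libraries titled GFP-, against 4.92, 4.16, 4.96 and 4.11 in odor libraries titled GFP+. It had 2.94, 2.93, 2.95 and 3.64 in vehicle libraries titled GFP-, against 4.14, 4.72, 4.46 and 3.94 in vehicle libraries titled GFP+ (log2, replicates 1 to 4). Every titled GFP- value was lower than every titled GFP+ value, so the gates did not overlap. None of the 8 titled GFP- libraries and 3 of the 8 titled GFP+ libraries exceeded their own background guide. Over the 8 pools the mean log2 ratio, titled GFP- minus titled GFP+, was -1.20 ± 0.44 (SD), and limma gave a standard error of 0.15 and an adjusted p of 0.000132. Because the titled GFP- side was never above the guide and the titled GFP+ side only in part, no fold change is given for Neurog1.

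Insm1, a repressor that moves progenitors out of division and into neuronal differentiation, gave a clearer separation from background. Its values were 4.28, 4.27, 4.54 and 3.95 in odor libraries titled GFP-, against 5.34, 5.62, 5.77 and 6.14 in odor libraries titled GFP+. In vehicle libraries they were 4.36, 4.64, 4.52 and 3.86 for titled GFP-, against 5.74, 5.80, 5.68 and 5.82 for titled GFP+. The gates did not overlap, and the guide was exceeded in 0 of 8 titled GFP- and 8 of 8 titled GFP+ libraries. The mean log2 ratio was -1.44 ± 0.41 (SD, n = 8 pools), with a standard error of 0.14 and an adjusted p of 2.14e-05 by limma. With the titled GFP- side set at its guide where it fell below, the difference was at least 1.86-fold.

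Hes6, a Hes family member that favours neuronal differentiation, had values of 5.13, 5.06, 4.21 and 3.85 in odor libraries titled GFP-, against 5.63, 5.78, 5.55 and 5.65 in odor libraries titled GFP+. In vehicle libraries it had 4.71, 5.02, 5.05 and 4.39 for titled GFP-, against 4.83, 5.87, 6.67 and 5.57 for titled GFP+. The gates overlapped over the 16 libraries, because vehicle pool 1 was low on the titled GFP+ side, although within each pool the titled GFP- library was the lower one. The guide was exceeded in 4 of 8 titled GFP- and 8 of 8 titled GFP+ libraries. The mean log2 ratio was -1.02 ± 0.57 (SD, n = 8 pools), with a limma standard error of 0.18 and adjusted p of 0.00184. No fold is given, since the titled GFP- side lay around background.

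Ezh2, the Polycomb methyltransferase, was far above the background guide in all 16 libraries. Its values were 8.60, 9.06, 8.71 and 8.12 in odor libraries titled GFP-, against 9.32, 9.51, 9.74 and 8.85 in odor libraries titled GFP+. In vehicle libraries they were 8.85, 8.83, 8.97 and 8.28 for titled GFP-, against 8.51, 10.07, 9.41 and 8.13 for titled GFP+. The gates overlapped, and the vehicle libraries titled GFP+ spread the most, with an SD of 0.88 against 0.31 to 0.39 in the other 3 groups. Ezh2 was lower on the titled GFP- side in 6 of 8 pools and higher in vehicle pools 1 and 4. The 95th percentile of control probe sets named neg was 9.39 and 9.44 in the titled GFP- libraries of vehicle pools 1 and 4. It was 8.40 to 8.59 in the other libraries titled GFP-, and its part in the Ezh2 ratio was not tested. The mean log2 ratio of Ezh2 was -0.52 ± 0.54 (SD, n = 8 pools), a 1.43-fold lower value. Limma gave a standard error of 0.16 and an adjusted p of 0.0372. The call was lost without odor pool 1 (adjusted p = 0.0703), odor pool 2 (0.0508), odor pool 3 (0.0931), odor pool 4 (0.0698), vehicle pool 2 (0.0629) or vehicle pool 3 (0.0813), and with each library centred on its median gene (log2 -0.16, adjusted p = 0.350).

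Kit, the receptor for stem cell factor, showed a gate difference well clear of the replicate spread. Its values were 4.02, 3.48, 3.85 and 3.97 in odor libraries titled GFP-, against 8.04, 8.54, 7.74 and 8.41 in odor libraries titled GFP+. In vehicle libraries it had 3.49, 3.28, 3.87 and 4.13 for titled GFP-, against 7.76, 8.32, 8.33 and 8.18 for titled GFP+. No titled GFP- value reached its background guide and all 8 titled GFP+ values exceeded theirs by more than 3 log2 units. The mean log2 ratio was -4.41 ± 0.45 (SD, n = 8 pools), with a limma standard error of 0.15 and adjusted p of 5.82e-09, and the bounded difference was at least 9.97-fold. Neurog1, Insm1 and Kit were the 3 regulators of 5 whose gates did not overlap, a pattern seen in 6.9% of all genes.

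The group means of each gene were split by gate. For Neurog1, Insm1, Hes6, Ezh2 and Kit alike, both titled GFP- groups lay under both titled GFP+ groups. Within titled GFP- libraries, odor and vehicle groups averaged 3.34 ± 0.35 and 3.12 ± 0.35 for Neurog1, 4.26 ± 0.24 and 4.34 ± 0.35 for Insm1, and 4.56 ± 0.63 and 4.79 ± 0.31 for Hes6 (SD, n = 4 each). Within titled GFP+ libraries they averaged 4.54 ± 0.46 and 4.31 ± 0.35 for Neurog1, 5.72 ± 0.34 and 5.76 ± 0.06 for Insm1, and 5.65 ± 0.10 and 5.74 ± 0.76 for Hes6. Each of these neighbouring pairs differed by less than the larger of its SDs. Ezh2 averaged 8.62 ± 0.39 in odor and 8.73 ± 0.31 in vehicle libraries titled GFP-, and 9.35 ± 0.38 in odor and 9.03 ± 0.88 in vehicle libraries titled GFP+. The values of the vehicle libraries titled GFP+ overlapped those of both titled GFP- groups. For Ezh2 the log2 gate ratio in vehicle pools was -0.30. Its odor minus vehicle difference in titled GFP+ libraries was 0.32, and neither passed the test. Group means and SDs leave out the pairing of gates within a pool. Kit averaged 3.83 ± 0.25 in odor and 3.69 ± 0.38 in vehicle libraries titled GFP-, and 8.18 ± 0.36 in odor and 8.15 ± 0.27 in vehicle libraries titled GFP+.

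**Figure D2:**
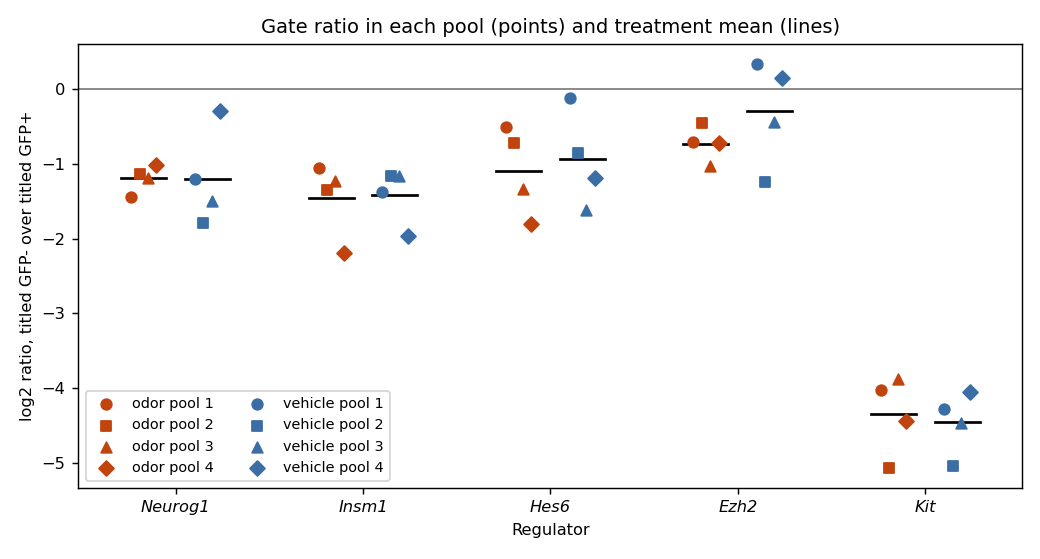
Log2 ratio of the titled GFP- over the titled GFP+ library in each of the 8 pools (points) with the treatment mean (lines), for each measured regulator. Kit lay between -5.07 and -3.88, Neurog1, Insm1 and Hes6 were below 0 in all 8 pools, and Ezh2 crossed 0 in 2 vehicle pools.

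The pools were then taken one by one. In odor pools 1 to 4 the Kit log2 ratio, titled GFP- minus titled GFP+, was -4.03, -5.07, -3.88 and -4.44, and in vehicle pools 1 to 4 it was -4.28, -5.04, -4.46 and -4.05. The Insm1 ratio was -1.06, -1.36, -1.23 and -2.19 in odor pools and -1.38, -1.16, -1.16 and -1.96 in vehicle pools, so pool 4 of each treatment had the lowest ratio. The Neurog1 ratio was -1.44, -1.14, -1.19 and -1.02 in odor pools and -1.20, -1.79, -1.50 and -0.30 in vehicle pools. The Neurog1 pools thus lay close together under odor, while vehicle pool 4 stood near 0. The Hes6 ratio was -0.50, -0.72, -1.34 and -1.80 in odor pools and -0.12, -0.85, -1.61 and -1.18 in vehicle pools. The Ezh2 ratio was -0.71, -0.45, -1.03 and -0.73 in odor pools and 0.33, -1.24, -0.44 and 0.15 in vehicle pools. Neurog1, Insm1, Hes6 and Kit were each lower on the titled GFP- side in 8 of 8 pools, as were 10.6% of all genes (exact two-sided sign-flip test, p = 0.00781 for each, the smallest that sign flips of 8 values can give). For Ezh2 the same exact test gave p = 0.0469.

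Taken by treatment, the gate ratio was called lower for 4 of the 5 regulators in odor pools, where 10.2% of all genes were, and for 4 of 5 in vehicle pools, where 9.95% were. None was called higher, against 7.82% of all genes in odor pools and 6.23% in vehicle pools. The regulator that did not pass was Ezh2 in both. Its log2 ratio was -0.73 in odor pools (limma adjusted p = 0.0504) and -0.30 in vehicle pools (adjusted p = 0.428). Hes6 had a ratio of -1.09 in odor pools (adjusted p = 0.0136) and -0.94 in vehicle pools (adjusted p = 0.0304). The Hes6 call in odor pools was lost without odor pool 3 (adjusted p = 0.0634) or odor pool 4 (0.0666), and the one in vehicle pools without vehicle pool 2 (0.0806), 3 (0.137) or 4 (0.112). Without the pool as a block the vehicle call for Hes6 was also lost (adjusted p = 0.0631), as was the call for Ezh2 over all 8 pools (adjusted p = 0.124). Ezh2 in odor pools passed without vehicle pool 1 (adjusted p = 0.0375) or vehicle pool 2 (0.0113), pools that enter this ratio only through the shared variance. The calls for Neurog1, Insm1 and Kit held without any single pool.

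Bourgeonal against filtered air gave no difference that passed the test for any of the 5 regulators. This comparison asked whether levels differed between treatments within a gate. In libraries titled GFP- the log2 difference, odor minus vehicle, was 0.23 for Neurog1, -0.08 for Insm1, -0.23 for Hes6, -0.11 for Ezh2 and 0.14 for Kit, with limma adjusted p from 0.996 to 0.997. None of 19505 genes (0%) was called in that gate. In libraries titled GFP+ the difference was 0.22 for Neurog1, -0.04 for Insm1, -0.08 for Hes6, 0.32 for Ezh2 and 0.03 for Kit, each with an adjusted p of 0.999, and 0.0103% of genes were called. The intervals give the sizes that 4 libraries a group leave possible. In titled GFP+ libraries the 95% interval ran from -0.42 to 0.49 for Kit, -0.43 to 0.35 for Insm1, -0.31 to 0.76 for Neurog1, -0.75 to 0.58 for Hes6 and -0.48 to 1.13 for Ezh2.

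**Figure D3:**
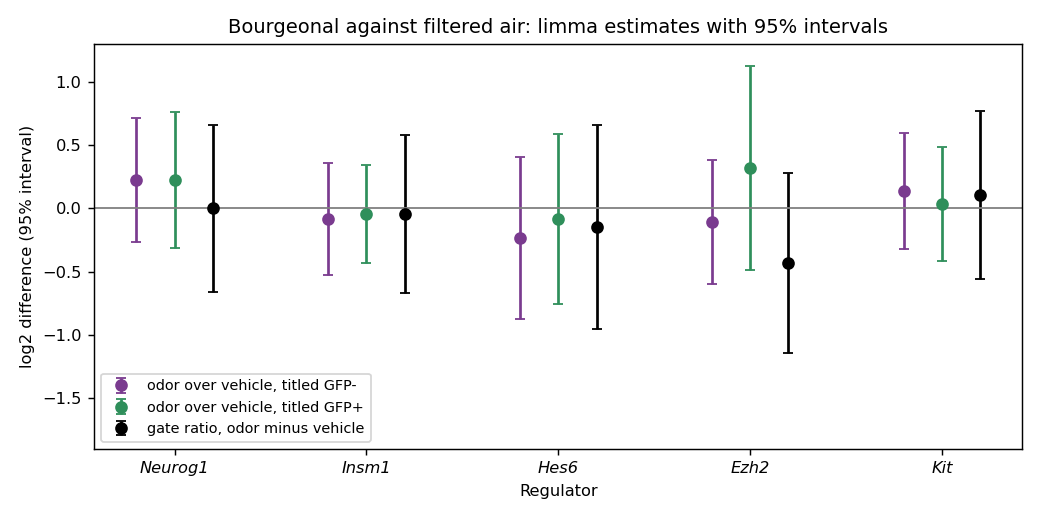
Limma estimates with 95% intervals of odor minus vehicle in libraries titled GFP- (purple), in libraries titled GFP+ (green) and of the gate ratio in odor minus vehicle pools (black), in log2 units for each measured regulator. All 15 intervals include 0.

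The change of the gate ratio with odor was also within the error for each regulator. The difference, odor pools minus vehicle pools, was 0.00 (95% interval -0.66 to 0.66) for Neurog1, -0.04 (-0.67 to 0.58) for Insm1, -0.15 (-0.96 to 0.66) for Hes6, -0.43 (-1.15 to 0.28) for Ezh2 and 0.10 (-0.56 to 0.77) for Kit. The limma adjusted p lay between 0.888 and 0.999, and 0% of all genes were called (1109 had an unadjusted p under 0.05). Exact two-sided permutation over the 70 ways to assign 8 pools gave p = 1.0 for Neurog1, 0.857 for Insm1, 0.743 for Hes6, 0.257 for Ezh2 and 0.743 for Kit, before adjustment for these 5 tests. The odor and vehicle pools overlapped for every regulator. These comparisons share libraries with the gate ratios and are not separate evidence.

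Among 20 other measured genes of globose basal cells and the neuronal lineage, 8 were lower and 1 was higher in titled GFP- libraries over the 8 pools, where 13.2% and 14.4% of all genes were. Their median log2 ratio was -0.29. Nhlh1, a basic helix-loop-helix factor of immediate neuronal precursors, had a ratio of -5.33 ± 0.27 (SE, adjusted p = 1.17e-07). Its values were 4.25, 3.86, 4.80 and 4.75 in odor libraries titled GFP-, against 10.23, 9.81, 9.99 and 9.06 in odor libraries titled GFP+. In vehicle libraries they were 4.60, 4.19, 3.83 and 4.81 for titled GFP-, against 9.59, 10.73, 9.58 and 8.74 for titled GFP+. Nhlh1 thus left background only on the titled GFP+ side, by at least 29.2-fold.

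The other genes that were lower came from several steps of the lineage. Sox2, a factor of stem and supporting cells, had a ratio of -1.61 and Pax6, shared with supporting cells, had -1.58. Sox11, a factor of immature neurons, had -3.04, Nhlh2 had -2.15 and the homeobox gene Dlx5 had -0.92. Cxcr4, a chemokine receptor of migrating precursors that leukocytes also carry, had -4.96. Elavl4, an RNA-binding protein of young neurons, had -0.44 (adjusted p = 0.00502), a call lost with each library centred on its median gene (log2 -0.09, adjusted p = 0.385). The one higher gene, Neurod4, had 0.55 but exceeded the guide in no library, and its call was lost without odor pool 3 (adjusted p = 0.0622).

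The 11 that did not pass include factors that mature olfactory neurons keep. The ratio was 0.13 for Ebf1, 0.07 for Ebf2, 0.04 for Ebf3, -0.11 for Lhx2 and 0.25 for Emx2, all of them above the guide in all 16 libraries. Lhx2 turned to 0.24 and passed when libraries were centred (adjusted p = 0.0134). Lgr5, a marker of cycling globose basal cells, had -0.31 (adjusted p = 0.200) and turned to 0.04 under centring. Sox4 had -0.46 (adjusted p = 0.0513) and passed without vehicle pool 1 (0.0493) or vehicle pool 2 (0.0198). Neurog2 had 0.16 and exceeded the guide in 0 of 8 titled GFP- and 2 of 8 titled GFP+ libraries. Neurog3 (0.24), Neurod2 (-0.27) and Insm2 (-0.02), close relatives of the described factors, exceeded it in none.

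**Figure D4:**
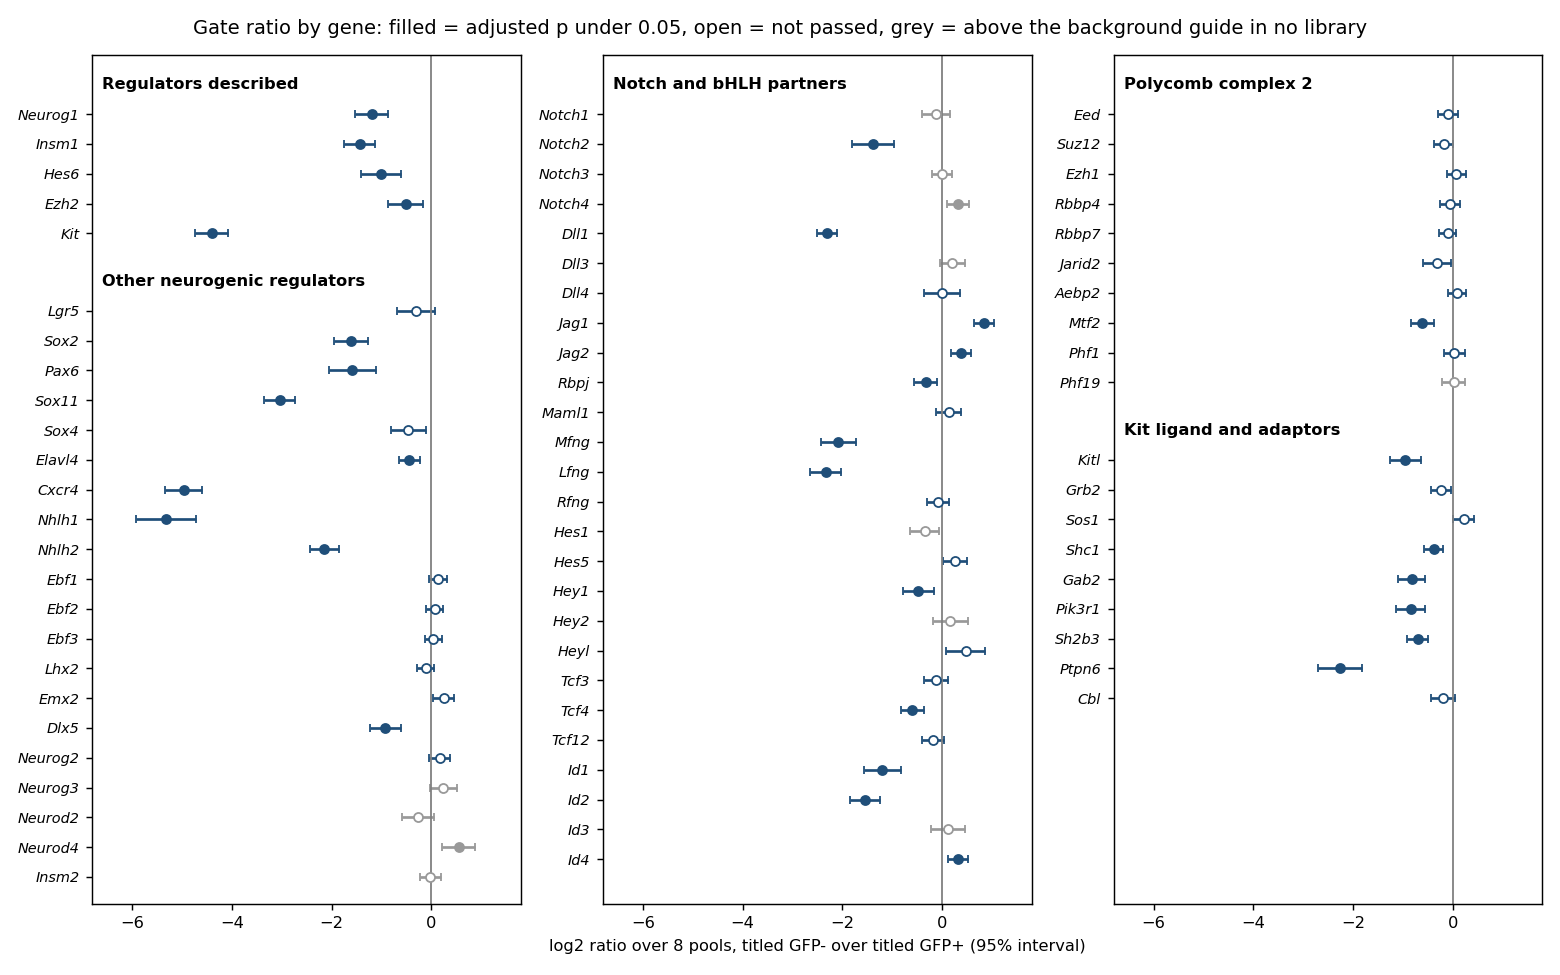
Log2 gate ratio over 8 pools, titled GFP- over titled GFP+, with 95% intervals, for the 5 regulators and the genes of their pathways (filled, adjusted p under 0.05; open, not passed; grey, above the background guide in no library). Nhlh1, Cxcr4 and Kit, whose titled GFP- side lies at background, are far below 0, most Polycomb subunits lie near 0, and Jag1 lies above 0.

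Of 26 measured genes of Notch signalling and partners of basic helix-loop-helix factors, 9 were lower and 4 higher in titled GFP- libraries, where 13.2% and 14.4% of all genes were, so the count of higher genes was near that of all genes. Their median log2 ratio was -0.09. Among ligands, Dll1, which neuronal precursors show to their neighbours, had -2.31 (adjusted p = 1.31e-08) and was at least 1.44-fold lower, with 0 of 8 titled GFP- and 8 of 8 titled GFP+ libraries above the guide. Jag1 had 0.84 (adjusted p = 4.16e-05) and was higher in 8 of 8 pools, and Jag2 had 0.38 and was also higher in 8 of 8. Dll3 (0.21) and Dll4 (-0.00) did not pass. Ligands of the same receptors thus differed in sign.

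Among receptors, Notch2, which supporting cells use, had -1.39 (adjusted p = 0.000288). Notch2 exceeded the guide in 0 of 8 titled GFP- and 7 of 8 titled GFP+ libraries and was at least 1.28-fold lower. Notch1 (-0.11) and Notch3 (0.00) did not pass and exceeded the guide in no library, as was true of Notch4, which had 0.31 and passed at an adjusted p of 0.0408. Lfng and Mfng, glycosyltransferases that tune ligand choice, had -2.33 and -2.08, while Rfng had -0.08 and did not pass. Lfng exceeded the guide in 0 of 8 titled GFP- libraries and was at least 2.37-fold lower. Rbpj, the DNA-binding partner of cleaved Notch, had -0.33 (adjusted p = 0.0368) but 0.02 under centring, and Maml1, its coactivator, had 0.13 and did not pass. The Notch4 call was lost without odor pools 1, 2 or 4, without vehicle pools 2, 3 or 4 and without the pool block (adjusted p = 0.0621), with adjusted p from 0.0627 to 0.101 over those pools. The Rbpj call was lost without any pool other than odor pool 3, with adjusted p from 0.0571 to 0.0894.

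Targets and inhibitors came next. Hes1, the repressor that Hes6 opposes, had -0.35 (adjusted p = 0.0738) and exceeded the guide in no library. It passed without odor pool 4 (adjusted p = 0.0202). Hes5 had 0.27 (adjusted p = 0.0906) and passed without odor pool 4 (0.0384). Hey1 had -0.48 (adjusted p = 0.0281), a call lost without odor pools 1, 2 or 3 or vehicle pools 1, 2 or 4 (adjusted p 0.0518 to 0.0780). Hey2 (0.17) and Heyl (0.47) did not pass. Id1 (-1.20) and Id2 (-1.55), which sequester helix-loop-helix partners, were lower. Id4 had 0.32 and was higher at an adjusted p of 0.0248, a call lost without odor pools 2 or 4 or vehicle pools 1, 2 or 3 (0.0513 to 0.0666). Of the E proteins that pair with Neurog1, Tcf4 was lower (-0.60, adjusted p = 0.00138), while Tcf3 (-0.12) and Tcf12 (-0.17) did not pass. Id3 (0.12) did not pass and exceeded the guide in no library.

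Of 10 other measured subunits and accessory proteins of Polycomb repressive complex 2, 1 was lower, a share no larger than the 13.2% of all genes. That gene was Mtf2, a factor that recruits the complex to DNA, with a log2 ratio of -0.61 (adjusted p = 0.00160). Mtf2 had 9.87, 10.05, 10.46 and 10.11 in odor libraries titled GFP-, against 10.81, 10.68, 11.20 and 10.42 in odor libraries titled GFP+. In vehicle libraries it had 9.70, 10.09, 10.16 and 9.97 for titled GFP-, against 10.15, 10.88, 10.99 and 10.15 for titled GFP+. Vehicle pools 1 and 4, where Ezh2 was higher on the titled GFP- side, had the lowest Mtf2 values among titled GFP+ libraries. The core subunits Eed (-0.09) and Suz12 (-0.18) and the alternative enzyme Ezh1 (0.07) did not pass, and neither did Rbbp4 (-0.06), Rbbp7 (-0.10), Jarid2 (-0.32), Aebp2 (0.09), Phf1 (0.03) or Phf19 (0.02). The median of the 10 was -0.07. Under centring Eed turned to 0.26 and passed as higher (adjusted p = 0.0225), and Suz12 turned to 0.18.

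The ligand of Kit and proteins that pass on or damp its signal were lower in 6 of 9 measured cases, against 13.2% of all genes, with a median of -0.70. Kitl, stem cell factor itself, had -0.95 (adjusted p = 0.000542) and exceeded the guide in 3 of 8 titled GFP- and 8 of 8 titled GFP+ libraries. Ptpn6, a phosphatase of blood cells that damps Kit signalling, had -2.26 (adjusted p = 8.98e-06). Pik3r1 (-0.84), Gab2 (-0.82), Sh2b3 (-0.70) and Shc1 (-0.38) were lower too, although the Shc1 call was lost under centring (log2 -0.03, adjusted p = 0.757). Sh2b3 exceeded the guide in 0 of 8 titled GFP- and 4 of 8 titled GFP+ libraries. Grb2 (-0.24), Cbl (-0.19) and Sos1 (0.22) did not pass.

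Most measured genes of dividing cells and part of those of young neurons were lower in titled GFP- libraries, as 13.2% of all genes were. Of 18 measured cell cycle genes 17 were lower, with a median log2 ratio of -1.45, and the one that did not pass was Tyms (-0.03). Mki67, a marker of dividing cells, averaged 4.25 in titled GFP- and 9.69 in titled GFP+ libraries and was at least 28.7-fold lower. Top2a (-0.80), Cdk1 (-1.08) and Ccnb2 (-2.27) were also lower, although Cdk1 exceeded the guide in no library. In the 4 vehicle libraries titled GFP+, Mki67 was 9.14, 10.02, 9.95 and 9.22, with pools 1 and 4 low, as they were for Ezh2. The odor libraries titled GFP+ did not share this pattern. There Mki67 was 8.88, 10.30, 10.17 and 9.85, lowest in pool 1, while Ezh2 was lowest in pool 4 (8.85, against 9.32 in pool 1). Of 15 immature neuron genes 9 were lower, with a median of -0.56, among them Gap43 (-2.62), Gng8 (-4.73), Stmn1 (-2.19) and Stmn2 (-0.58). The other 6 did not pass, among them Dcx (0.05), Tubb3 (0.00) and Ncam1 (0.13), which were named after their values were seen.

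Other cell types were measured beside these, where 13.2% of all genes were lower and 14.4% higher in titled GFP- libraries over the 8 pools. The summed signal of 10 microvillar cell markers was 7.91 to 8.43 in titled GFP- and 11.07 to 12.54 in titled GFP+ libraries (log2 of the sum), and 10 of 10 were lower. For 10 supporting cell markers it was 12.57 to 14.93 in titled GFP- and 15.20 to 16.22 in titled GFP+ libraries, and 9 of 10 were lower. Of 6 horizontal basal cell markers 2 were lower, Icam1 and Egfr, and both stayed below the guide in every library. In this list 4 exceeded the guide in no library, the others being Krt5 and Trp63, the markers that define these cells. The 12 mature neuron markers summed to 21.13 to 21.28 in titled GFP- and 21.09 to 21.21 in titled GFP+ libraries. Their part in the results for Neurog1, Insm1, Hes6 and Ezh2 was not tested.

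Kit was set beside markers of the blood cells that carry it or derive from cells that do. Of all genes 13.2% were lower in titled GFP- libraries. Of 12 genes of neutrophils and their precursors 12 were lower in titled GFP- libraries, with a median log2 ratio of -6.98 and summed levels of 7.75 to 8.99 in titled GFP- and 17.66 to 18.83 in titled GFP+ libraries. The precursor granule genes Mpo (-5.64), Elane (-4.81), Prtn3 (-1.82) and Ctsg (-1.35) were among them. Ctsg exceeded the guide in 0 of 8 titled GFP- and 2 of 8 titled GFP+ libraries. Among 5 genes of blood stem and progenitor cells, Myb (-4.64), Cd34 (-0.61) and Gata2 (-0.51) were lower and Flt3 (-0.29) did not pass. Neither Cd34 nor Gata2 exceeded the guide in a titled GFP- library. In titled GFP+ libraries Cd34 did so in 7 of 8 and Gata2 in 2 of 8. The Cd34 call was lost without odor pools 1 or 2 or vehicle pools 2 or 3 (adjusted p 0.0654 to 0.0748), the Gata2 call without odor pool 3 or vehicle pools 1, 2 or 3 (0.0518 to 0.0740), and both under centring. The summed level of the 5 was 7.57 to 8.28 in titled GFP- and 9.35 to 10.12 in titled GFP+ libraries.

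Mast cells, which depend on Kit, gave a mixed picture. Of 10 mast cell markers 8 exceeded the guide in no library, including the defining proteases Mcpt4, Cma1, Tpsb2 and Tpsab1. Cpa3 was lower in titled GFP- libraries (-2.0, adjusted p = 0.000123). Named after their values were seen, Hdc (-4.53) and Ms4a2 (-0.64) were lower as well and Mrgprb1 (0.35) was higher, Ms4a2 and Mrgprb1 without a library above the guide. The Ms4a2 call was lost under centring (adjusted p = 0.0734). The summed level was 6.75 to 7.20 in titled GFP- and 9.18 to 10.22 in titled GFP+ libraries. In titled GFP+ libraries Hdc averaged 9.41 and Cpa3 6.33, so the sum there mainly reflects Hdc and not the proteases. Of 6 melanocyte markers, another cell type that needs Kit, 0 were called in either direction, where 27.6% of all genes were. Tyr, Tyrp1, Pmel and Mlana exceeded the guide in no library, and Dct in 1 of 8 libraries of each gate. Mitf exceeded it in 8 of 8 libraries of each gate, with means of 7.33 in titled GFP- and 7.37 in titled GFP+ libraries. Lymphocyte markers were lower in 7 of 10 and macrophage markers in 7 of 7, against 13.2% of all genes. Their sums were 7.60 to 8.06 in titled GFP- against 8.69 to 9.36 in titled GFP+ libraries and 7.24 to 8.19 against 8.81 to 10.02. The share of the Kit signal that came from blood cells was not tested.

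**Figure D5:**
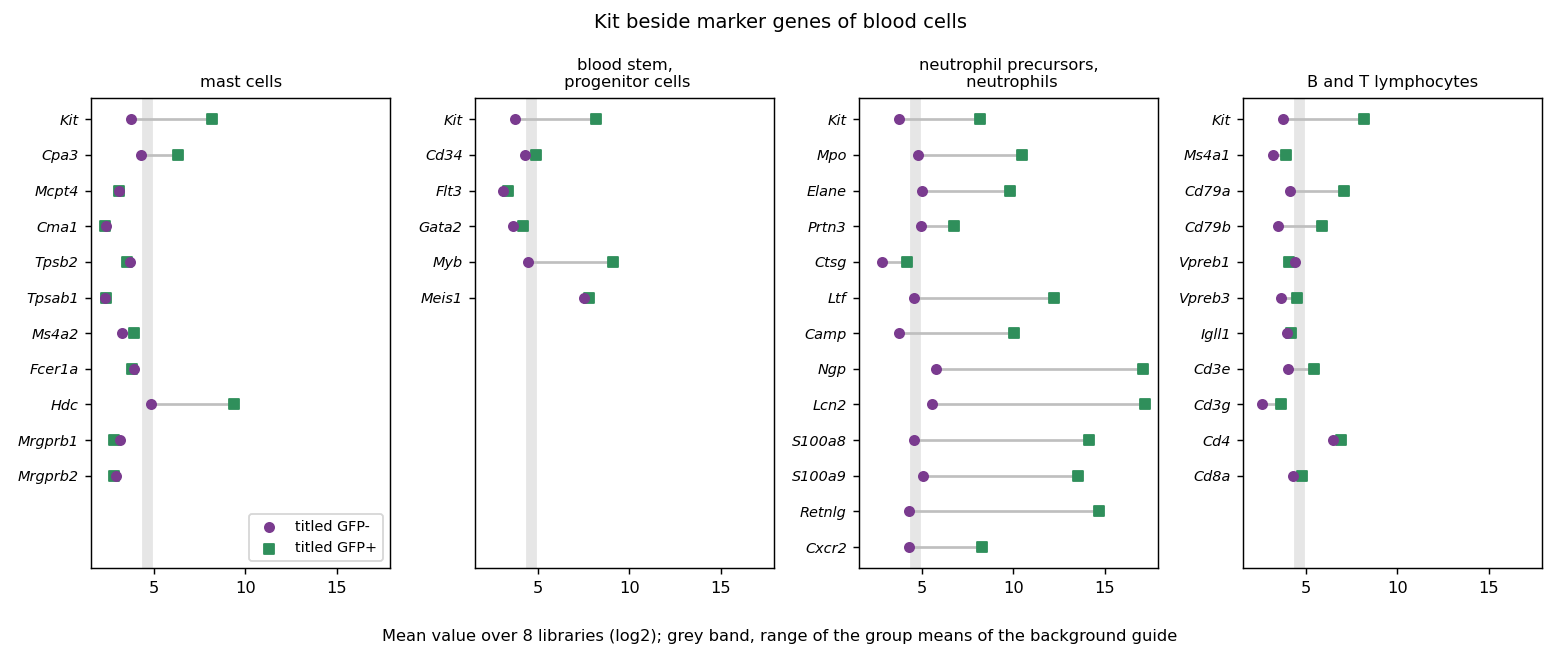
Mean log2 value over the 8 libraries titled GFP- (circles) and the 8 titled GFP+ (squares) of Kit and of marker genes of 4 groups of blood cells, with the range of the group means of the background guide as a grey band. Kit, Hdc, Myb and all neutrophil genes but Ctsg lie above the band on the titled GFP+ side, while the mast cell proteases Mcpt4, Cma1, Tpsb2 and Tpsab1 lie below it in both gates.

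The genes whose values ran closest to each regulator over the 16 libraries were listed by Pearson correlation. The 11633 genes compared had a mean above the guide in at least one group. Odorant receptor genes and genes with Gm or Rik names were left out of them. The points share the gate, which separates the values into 2 clusters, so the correlation within the 8 titled GFP+ libraries is given beside it and no p is attached. Kit ran with Spi1 (0.995 over 16 libraries and 0.632 within titled GFP+), a factor of myeloid cells, with Ly6e (0.995 and 0.349) and with the neutrophil granule gene Ngp (0.994 and 0.456). Insm1 ran with Dennd2d (0.977 and 0.844), with Myc (0.969 and 0.622), a growth factor-induced factor of dividing cells, and with Cd79b (0.969 and 0.840), part of the B cell receptor. Neurog1 ran with Ap1s2 (0.937 and 0.630), with Il1rn (0.937 and 0.732), an interleukin receptor antagonist, and with Chil1 (0.936 and 0.738). Hes6 ran with Sp140 (0.870 and 0.645), Dab1 (0.869 and 0.881), an adaptor of reelin signalling, and S100a10 (0.867 and 0.727). For Ezh2 the closest genes were Gys1 (0.908 and 0.971), a glycogen synthase, Tmcc1 (0.90 and 0.927) and Ehmt1 (0.869 and 0.872), another histone methyltransferase. Only for the Ezh2 trio were all 3 correlations as high or higher within one gate as over both.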

How the data were processed

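The values are log2 expression values that the authors deposited for Clariom S arrays. Per the submitters' processing notes, Affymetrix Expression Console was used. Per the labels' protocols, 50 to 100 ng of RNA went into each cRNA. Not given in the sources used here are the software version, the summarisation method and the build. The table holds 28846 probe sets, from which 94 spike-in or background probe sets, 6546 others whose ID marks them as negative or positive controls, and 2634 without a gene name in the annotation used here were removed. Where probe sets shared a gene, the brightest by mean was used, giving 19505 genes.

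Gate ratios (titled GFP- over titled GFP+) and their odor minus vehicle difference came from 1 fit of all 16 libraries in limma 3.58.1 (R 4.3.3; lmFit and eBayes) with the pool as a block. Within a gate, odor and vehicle were compared on 8 libraries, with no block. Tests were two-sided and called at 0.05 after Benjamini-Hochberg adjustment over the 19505 genes. Where a fold is given and the titled GFP- side exceeded the guide in 0 of 8 libraries, the fold is a bound. For it, each titled GFP- library was set at the higher of its guide and its own value. Log2 ratios are given as fitted, also where a side lay below the guide. The guide takes the place of detection calls. The labels do not say that pools are separate exposures, and p-values measure the spread between them. Members and gene lists were chosen with earlier results of these data known. The text names the regulators and all genes of the lists on other regulators, Notch, Polycomb and Kit signalling. It names up to 4 genes of each other list in list order, S100a5 and Omp. For each regulator it also names the 3 genes of highest correlation, with odorant receptors and Gm and Rik genes left out. Dcx, Tubb3, Ncam1, Tpsab1, Tyms, Hdc, Ms4a2, Mrgprb1, Mlana, Mitf and Egfr were named after their values were seen.

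The gates of a pool were taken as paired because 24 mice in threes make 8 pools for 16 libraries. After subtracting group means, the 2 gates of a pool correlated at 0.135 to 0.287 under odor and 0.098 to 0.201 under vehicle. Same-numbered odor and vehicle libraries correlated at 0.157 to 0.210 among those titled GFP+ and at 0.088 to 0.161 among those titled GFP-. Libraries within a group correlated at 0.9896 to 0.9944 and none held the values of another. The fits were tested on simulated data with known changes. Alternatives were no block, a block by replicate number, centring, quantile normalization, leaving out dim genes, an intensity trend, the mean of all probe sets of a gene, other guides, and leaving out each pool.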

Additional observations from a re-analysis of the deposited data

Results flagged for a closer look

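Among 30 sets of 4 values (each of the 5 regulators in its 4 groups and in the ratios of odor and vehicle pools) screened for a value far from the others, 1 stood out. Neurog1 in vehicle libraries titled GFP- had 2.94, 2.93, 2.95 and 3.64, and the gap from replicate 4, at 3.64, to the nearest other made up 0.970 of the range, above Dixon's critical value for 4 values. All 4 values lay below the background guide of 4.81 to 4.97 in those libraries. Chance alone flags about 1 in 20 such sets. Without vehicle pool 4 the gate ratio of Neurog1 in vehicle pools was -1.50, against -1.20 with it, and stayed past the threshold. The cause was not tested.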

How the results depend on the processing

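The gate calls of Neurog1, Insm1 and Kit kept their direction and side of the threshold in odor pools, vehicle pools and all 8 pools under all 14 alternatives run for each, as did Hes6 over all 8 pools. Centring on the median gene raised the counts of genes called to 12174 in odor pools (87.3% of them higher, against 43.3% as deposited), 12023 in vehicle pools (87.3% against 38.5%) and 16128 over all 8 pools (88.9% against 52.2%). Quantile normalization gave 55% higher in odor pools, 53.7% in vehicle pools and 62.9% over all 8. Under centring Ezh2 in vehicle pools turned to 0.0562 and the Neurog1 difference to -0.0034, and over all 8 pools Lgr5 turned to 0.0408, Lhx2 to 0.24, Notch1 to 0.24, Rbpj to 0.0246, Hes1 to 0.0041, Tcf12 to 0.18, Suz12 to 0.18 and Eed to 0.26. Centring also brought Ebf1 (0.48), Dll3 (0.56), Hes5 (0.62), Ezh1 (0.42), Omp (0.39), Lhx2 and Eed past the threshold as higher, and ended the calls of Elavl4, Rbpj, Hey1 (-0.12), Shc1, Ms4a2, Cd34, Gata2 and, over all 8 pools, Ezh2 (-0.16, adjusted p = 0.350). Quantile normalization did so for Hes5 (0.59) and for Hes1 as lower (-0.41), and ended the calls of Hey1 (-0.28) and Cd34 (-0.44). Hes6 lost its call in vehicle pools under centring (-0.59, adjusted p = 0.0701) and under quantile normalization (-0.66, 0.123), and in odor pools under quantile normalization (-0.82, 0.0581). Ezh2 in odor pools passed under quantile normalization (adjusted p = 0.0485), without dim genes (0.0374) and with an intensity trend (0.0209).

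Leaving out the pool block lowered the counts of genes called to 3078 in odor pools (3521 with it), 2786 in vehicle pools (3156) and 4724 over all 8 (5378), and ended the calls of Hes6 in vehicle pools (adjusted p = 0.0631) and, over all 8, of Ezh2 (0.124) and Notch4 (0.0621). With the replicate block by number, 1 gene was called for odor in libraries titled GFP+, where same-numbered libraries were paired, against 2 without it, and no regulator was (Ezh2 0.32, adjusted p = 0.884). It changed no call on a regulator for odor in either gate or for the difference. For odor in libraries titled GFP+, leaving out dim genes gave 0 calls and leaving out single pools 0 to 2. The intensity trend called 2 genes, none a regulator, for the difference. The cause of these shifts was not tested.

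Leaving out single pools turned signs only among differences that did not pass. The difference ranged from -0.20 to 0.30 for Neurog1, -0.23 to 0.20 for Insm1, -0.37 to 0.13 for Hes6 and -0.0902 to 0.341 for Kit, and the Ezh2 ratio in vehicle pools from -0.510 to 0.0147. Odor minus vehicle ranged in libraries titled GFP- from -0.248 to 0.0178 for Insm1, -0.422 to 0.0045 for Hes6, -0.259 to 0.0581 for Ezh2 and 0.00 to 0.28 for Kit, and in libraries titled GFP+ from -0.182 to 0.0861 for Insm1, -0.385 to 0.227 for Hes6 and -0.0936 to 0.183 for Kit. Background was set by the guide chosen: of 20 means (5 regulators in 4 groups) 11 exceeded it, against 18 with the median of vomeronasal genes and 3 with control probe sets named neg. That control guide averaged 8.54 to 8.95 by group. Ezh2 exceeded it in every group but vehicle titled GFP-, and Kit in none. The fold bounds used only the 95th percentile of vomeronasal genes. Signal near background compresses the ratios of Neurog1, Insm1, Hes6 and Kit, and 4 libraries a group limit the precision.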

Other observations

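Dll1, the Notch ligand of neuronal precursors, had the smallest unadjusted p among the listed genes when the gate ratio of odor pools was set against that of vehicle pools, a choice made after its values were seen. It had 2.58, 2.87, 2.84 and 2.69 in odor libraries titled GFP-, against 3.17, 3.17, 3.35 and 3.81 in vehicle libraries titled GFP- (log2), so the treatments did not overlap in that gate. In libraries titled GFP+ it had 5.0, 5.63, 5.67 and 5.51 under odor, against 5.18, 5.22, 5.29 and 5.47 under vehicle, where they overlapped. The difference of the ratio was -0.79 (95% interval -1.18 to -0.40), which failed the correction over 19505 genes (limma adjusted p = 0.807). All 8 titled GFP- values lay below the background guide.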
